A study of Mus musculus with 8 samples.

Results

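Sox7, Sox17 and Sox18, which make up the SoxF group of transcription factors, and Sox9, a member of the SoxE group, were followed through all cell types captured from the mouse aorta-gonad-mesonephros region (AGM) at embryonic day 10.5. These 4 genes were chosen by name from the 28014 genes of the count table. They and the gene lists used below were chosen with earlier results of these data known. Counts of them called therefore describe these chosen genes only. The AGM is the part of the embryo where the dorsal aorta gives rise to the first hematopoietic stem cells, through an endothelial-to-hematopoietic transition (EHT). Cells carrying CD31, a surface protein of endothelial and early blood cells, were sorted, stained with antibodies that carry DNA tags, and read by CITE-seq, which counts RNA molecules and antibody tags in the same single cell. There were 5 wild-type (WT) libraries of the C57BL/6 strain and 3 libraries of the genotype Meis1-flox/VE-Cre, labelled as a Meis1 knockout, and each library pooled the cells of 2 to 5 embryos. In the latter, the Cre recombinase is driven by the VE-Cadherin promoter, so that Meis1 is deleted in endothelium and in the cells that descend from it. Cells whose names begin with Mf_ belong to WT 5, and the labels do not explain this prefix. The paper also applies the name WT to Meis1-flox littermates without Cre. Whether WT 5 carries the floxed allele was not tested. Nothing in the labels ties a library to a separate day or litter, so p-values measure the spread between these pools.

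SoxF factors are DNA-binding proteins of vascular endothelium. They act on arterial genes such as Dll4 and Notch1 and on endothelial junction genes such as Cdh5, and Sox18 also acts on Prox1, a regulator of lymphatic fate. Sox17 is known for its role in arterial and hemogenic endothelium, and prolonged Sox17 activity holds hemogenic cells back from a blood fate. Sox9 is best known as the regulator of cartilage and of several progenitor cells, where it works with Sox5 and Sox6, and it is also known from the cells of heart valves. In the mouse build GRCm38.p6, Sox17 lies on chromosome 1 from 4490928 to 4497426, Sox18 on chromosome 2 from 181669837 to 181671640, Sox9 on chromosome 11 from 112782210 to 112787757, and Sox7 on chromosome 14 from 63943706 to 63950732. The chemistry reads the 3′ end of each transcript, so the counts do not tell isoforms apart.

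The table held 15168 cells in 10 types as named by the authors: arterial endothelial cells (aEC), pre-hemogenic endothelium (pre-HE), 4 venous clusters (vEC_1 to vEC_4), cells in transition (EHT), erythro-myeloid progenitors (EMP), megakaryocytes (Mk) and myeloid cells. These clusters were drawn from the same RNA counts, so a p-value between clusters describes that partition. Totals ran from 20484881 to 79429129 UMIs per library, a UMI being 1 counted molecule. The median cell held 26572 to 28553 UMIs in WT 1 to WT 4, 12720 in WT 5 and 9612 to 14895 in the Meis1-flox/VE-Cre libraries, so depth and genotype cannot be told apart except through WT 5. The cluster names held against their markers: 9 arterial genes summed to 2698 CPM in pre-HE and 559.8 in aEC but 254.3 to 342.1 in the venous clusters, and 3 venous genes to 248.4 to 729.8 in the venous clusters and 146.5 in aEC. CPM is the count per 1e6 UMIs, summed over the cells of a type in a library, and is used for every level given here. Markers of other cells also differed between pre-HE and aEC. In WT, 2 endocardial genes summed to 270.0 CPM in pre-HE and 28.2 in aEC, and 7 mesenchyme genes to 54.5 and 3.28 CPM, with Pdgfrb at 0 in both. Of 6 hemogenic genes 2 could be tested between these clusters, and Kit and Itga2b were both called lower in pre-HE, by log2 differences of -1.35 and -0.98. The part of these cells in the SoxF levels of pre-HE was not tested. WT 5 stood apart in pre-HE, where it held 16 cells and the venous genes reached 173.8 CPM against 25.9 to 64.5 in the other WT libraries. Counts of Meis1 in pre-HE overlapped between WT (12.9 to 51.4 CPM) and Meis1-flox/VE-Cre (9.57 to 53.1 CPM). The floxed part is an internal exon, which 3′ counts need not show, so this does not check the labels. There were 33 cell barcodes that occurred in more than 1 library, on 66 cells.

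All 3 SoxF genes were at their highest in pre-HE, next highest in aEC, lower in the venous clusters and low in EHT, while Sox9 was highest in aEC and low in the other types. Sox17 in pre-HE was at 516, 523, 506, 499 and 367 CPM in WT 1 to WT 5, with a mean of 482 ± 65.0 (SD, n = 5). In aEC the same libraries gave 251, 225, 198, 237 and 173 CPM, a mean of 217 ± 31.6 (SD, n = 5). The ranges of pre-HE and aEC did not overlap, and WT 5 was the lowest library in both. Further down the order, Sox17 was at 120 ± 17.6 CPM in vEC_1, 95.4 ± 12.6 in vEC_2, 56.01 ± 9.21 in vEC_3, 49.0 ± 13.4 in vEC_4 and 17.5 ± 6.28 in EHT (SD, n = 5 each). The steps from aEC to vEC_1, from vEC_2 to vEC_3 and from vEC_4 to EHT were without overlap between libraries. Those between vEC_1 and vEC_2 and between vEC_3 and vEC_4 lay within the spread, although vEC_1 was the higher in 5 of 5 libraries and vEC_3 in 4 of 5.

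Sox18, known from vascular and lymphatic development, varied less among endothelial clusters. Its level in pre-HE was 470, 654, 376, 344 and 232 CPM in WT 1 to WT 5, a mean of 415 ± 158 (SD, n = 5). In aEC it was at 345, 368, 294, 278 and 184 CPM, a mean of 294 ± 71.7 (SD, n = 5). Pre-HE was the higher in 5 of 5 libraries, but the ranges overlapped, and in both clusters WT 2 was the highest library and WT 5 the lowest. The 4 venous clusters were at 201 ± 39.9 to 250 ± 58.5 CPM (SD, n = 5 each), and neighbours in this order did not differ beyond their spread, although vEC_4 was above vEC_3 in 5 of 5 libraries. EHT, at 73.0 ± 12.5 CPM (SD, n = 5), did not overlap with any venous cluster.

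Sox7, the least abundant SoxF gene, acts in early endothelial and hematopoietic specification. In pre-HE it was at 111, 112, 64.8, 128 and 142 CPM in WT 1 to WT 5, a mean of 111 ± 29.0 (SD, n = 5). In aEC it was at 84.4, 73.7, 78.6, 83.4 and 48.5 CPM, a mean of 73.7 ± 14.7 (SD, n = 5). Pre-HE was the higher in 4 of 5 libraries, with WT 3 the exception. The venous clusters lay between 29.0 ± 6.80 CPM in vEC_3 and 41.4 ± 10.3 CPM in vEC_4, and EHT at 10.0 ± 5.71 CPM (SD, n = 5 each). The lowest vEC_3 library was above the highest EHT library, and no other pair of neighbours in the order of Sox7 levels from pre-HE to EHT was without overlap.

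In the blood types the SoxF genes were near the floor of the assay. Mean WT levels in EMP and myeloid cells were 0.72 and 1.89 CPM for Sox7, 2.84 and 3.65 for Sox17 and 6.46 and 6.61 for Sox18. Megakaryocytes were higher, with 5.36 CPM of Sox7, 12.3 of Sox17 and 24.2 of Sox18 over the 4 WT libraries that held at least 10 such cells.

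**Figure D1:**
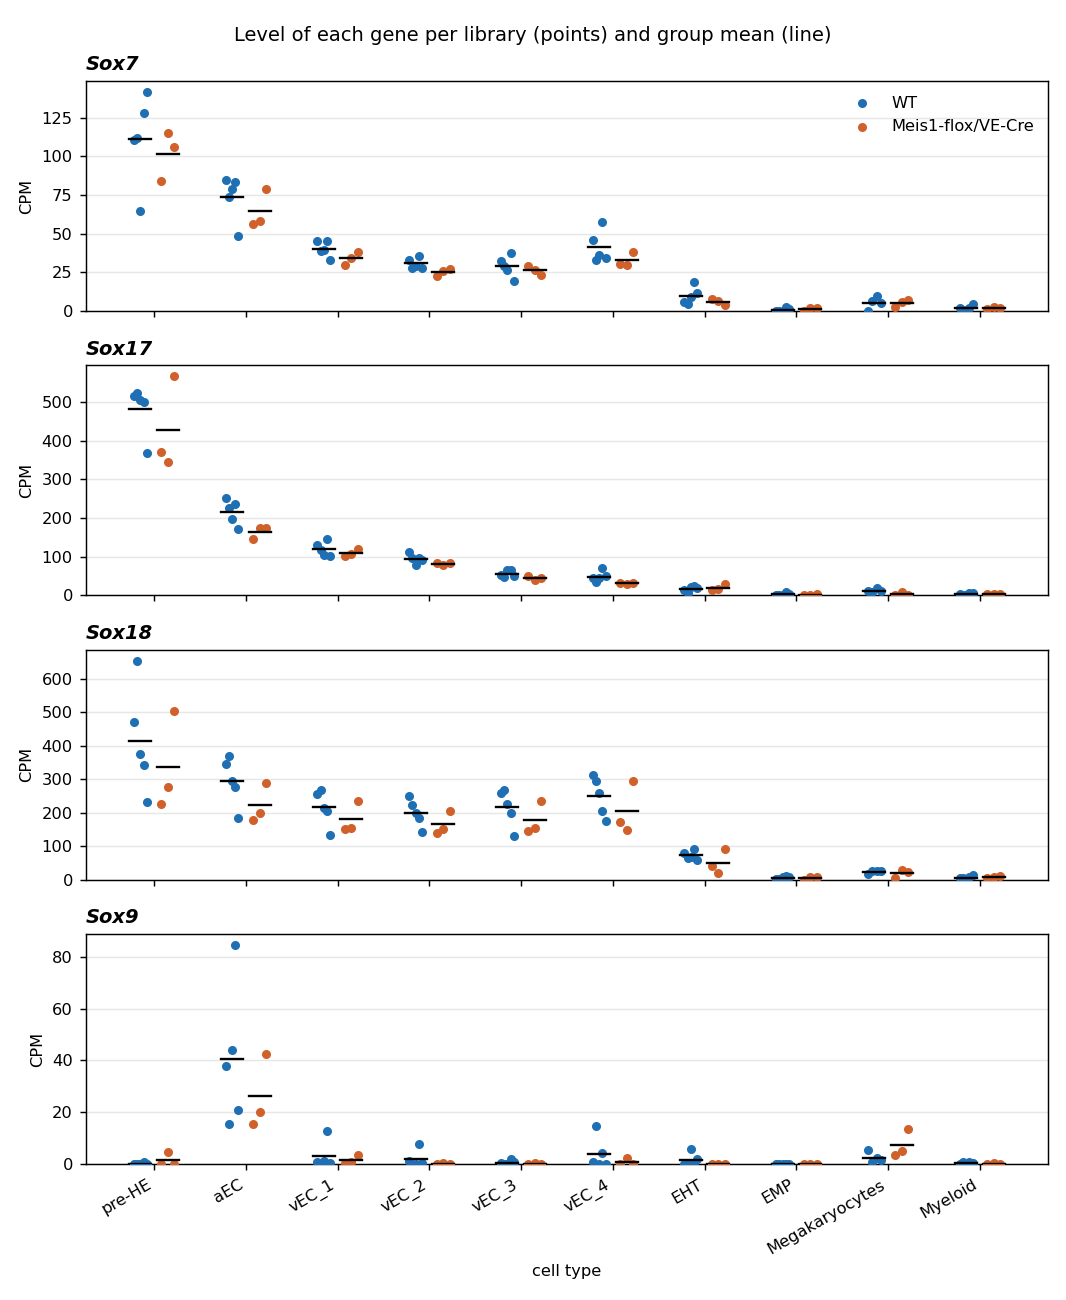
Level of Sox7, Sox17, Sox18 and Sox9 in CPM (vertical axes, from 0) in each of the 10 cell types (horizontal axis), with 1 point per library and a line at the mean of each genotype. The SoxF genes peak in pre-HE, at a WT mean of 111 CPM for Sox7, 482 for Sox17 and 415 for Sox18, whereas Sox9 stands above the other types in aEC, at 40.6 CPM.

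Because the members fell off at different rates, the make-up of SoxF RNA differed between clusters. For every Sox18 UMI there were 1.26 ± 0.311 Sox17 UMIs in pre-HE, 0.761 ± 0.134 in aEC, 0.581 in vEC_1, 0.487 in vEC_2, 0.275 in vEC_3 and 0.212 ± 0.0972 in vEC_4 (SD over 5 WT libraries). This ratio was computed within each library, and it is a ratio of UMIs at the 3′ end, with no length entering it. In EHT the ratio was 0.242.

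Sox9 in aEC was at 37.8, 15.6, 43.9, 84.4 and 21.1 CPM in WT 1 to WT 5, a mean of 40.6 ± 27.1 (SD, n = 5). WT 4 was the highest library, and without it the mean was 29.6 ± 13.4 CPM. In pre-HE, the cluster with the most SoxF RNA, there was 1 Sox9 UMI in the 5 WT libraries against 838 in aEC, a ratio of levels of 117 with a 95% counting interval from 21.0 to 4638. WT 4 gave 570 of these 838 UMIs and the 1 in pre-HE. EHT held 12 Sox9 UMIs, and the ratio of aEC to EHT was 38.9 (22.1 to 75.5, counting error only). Without WT 4 it was 16.5 (9.08 to 33.5), from 268 and 11 UMIs, and pre-HE held 0 UMIs. Among venous clusters the WT means were 3.24 CPM in vEC_1, 1.955 in vEC_2, 0.655 in vEC_3 and 4.09 in vEC_4. Single libraries carried these means. WT 4 gave 12.9 CPM in vEC_1 and 7.79 in vEC_2, and without it the means were 0.824 and 0.495 CPM. WT 2 gave 14.9 CPM in vEC_4, from 37 UMIs in 3 of 116 cells, 30 of them in 1 cell. The lowest aEC library, at 15.6 CPM, was above the highest library of vEC_4. The Meis1-flox/VE-Cre libraries had 15.6, 20.2 and 42.6 CPM in aEC and 1 Sox9 UMI in pre-HE. Megakaryocytes were next to aEC in that genotype, at 3.52, 5.11 and 13.5 CPM from 4, 5 and 11 UMIs, a mean of 7.39 ± 5.39 (SD, n = 3), and were at 2.58 CPM in WT (0.724 to 5.45, n = 4). In the Meis1-flox/VE-Cre library at 13.5 CPM, 1 of 38 megakaryocytes held 10 of the 11 UMIs. At full depth, 5.19% of WT and 5.38% of Meis1-flox/VE-Cre megakaryocytes held a Sox9 UMI, against 0.987% and 0.238% of myeloid cells. With each cell thinned at random to 5000 UMIs, the shares were 0.758% and 2.94% of megakaryocytes, against 0.493% and 0.0522% of myeloid cells.

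Pre-HE was set against aEC to see which members differ between arterial endothelium and the cluster placed nearest to hemogenic endothelium. In edgeR's quasi-likelihood test on WT sums with the library as a block, Sox17 was 1.04 ± 0.0962 higher in pre-HE on the log2 scale (SE; adjusted p = 4.31e-12), Sox7 0.50 ± 0.154 (adjusted p = 0.00868) and Sox18 0.37 ± 0.10 (adjusted p = 0.00304). Here and throughout, p-values were adjusted over all genes tested and a gene was called at an adjusted p under 0.1. Sox9 was lower in pre-HE and was also called, from the 1 UMI given before. So all 4 members were called, 3 of them higher, where 42.1% of the 8143 genes tested were called and 21.1% were called higher. The calls of Sox7 and Sox18 were lost under Bonferroni adjustment. That of Sox18 was also lost without a filter on low counts, at a log2 difference of 0.24, with sums of at least 20 cells, at 0.28, and without the library block, at 0.40.

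From pre-HE to EHT the SoxF genes fell to different depths. Sox17 fell by 4.73 ± 0.163 on the log2 scale, Sox7 by 3.42 ± 0.233 and Sox18 by 2.40 ± 0.142 (SE, edgeR's quasi-likelihood test, adjusted p = 7.13e-22, 2.62e-14 and 7.22e-16). All 3 were thus called, where 61.6% of 8467 genes were called and 30% were called lower. Sox9 did not pass the filter on low counts and was not tested. The intervals of Sox17 (-5.06 to -4.40) and Sox18 (-2.69 to -2.11) did not meet. These fitted differences amount to 26.6-fold less Sox17 RNA and 5.29-fold less Sox18 RNA in EHT. The genes that mark EHT, among them Runx1 and Gfi1, summed to 456 CPM in EHT and 9.0 CPM in pre-HE.

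Against the venous clusters every member was higher in aEC and was called, in each of the 4 comparisons. The background of called genes was 49.2% against vEC_1, 61.5% against vEC_2, 65.4% against vEC_3 and 53.5% against vEC_4. Called higher were 24.8%, 31.9%, 33.4% and 26.6% of the genes, in the same order. Sox17 was 0.83 ± 0.0499 higher in aEC than in vEC_1 on the log2 scale, 1.22 ± 0.0570 than in vEC_2, 2.06 ± 0.0817 than in vEC_3 and 2.19 ± 0.104 than in vEC_4 (SE, edgeR's quasi-likelihood test, largest adjusted p = 4.13e-12). Sox7 was 0.85 ± 0.0701, 1.29 ± 0.0825, 1.40 ± 0.0824 and 0.85 ± 0.101 higher in the same comparisons. Sox18 differed least, by 0.44 ± 0.0376, 0.58 ± 0.0506, 0.53 ± 0.0479 and 0.32 ± 0.0579, and its call against vEC_4 was lost under Bonferroni adjustment and without the library block. Sox9 was 3.30 ± 0.216, 4.11 ± 0.229, 5.75 ± 0.211 and 3.42 ± 0.394 higher. Without WT 4 the Sox9 differences were 5.13, 5.80, 6.49 and 2.66, all called.

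**Figure D2:**
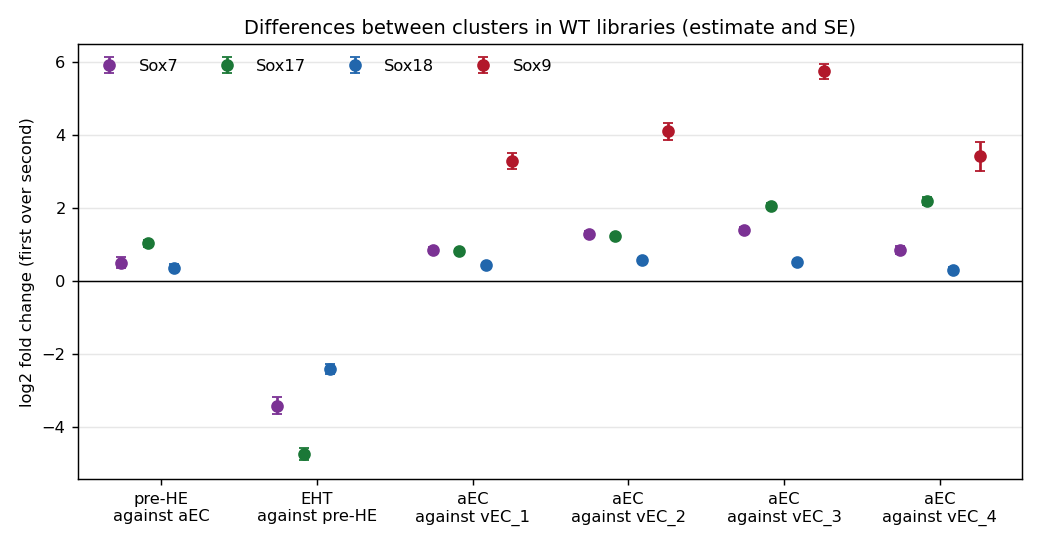
Log2 fold change of each member (vertical axis, first cluster over second) in 6 comparisons within WT (horizontal axis), with points for the estimate and bars for 1 SE on either side. Sox17 has the widest span of the SoxF genes, from 2.19 for aEC against vEC_4 to -4.73 for EHT against pre-HE, and Sox9 is positive in all 4 comparisons of aEC with a venous cluster. Sox9 is not drawn for pre-HE against aEC, where it had 1 UMI in pre-HE.

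Genes known as direct targets of SoxF factors were then read in the same comparisons, from a list of 9. In pre-HE, 4 of the 7 tested rose relative to aEC, 1 fell and 2 did not pass. Over all genes tested, 21.1% were called in each direction. Efnb2, the arterial ephrin ligand, rose by 2.39 ± 0.13 on the log2 scale, Cdh5, which encodes VE-Cadherin, by 1.51, Dll4, the arterial Notch ligand, by 1.48 and the receptor gene Notch1 by 1.19. Robo4, an endothelial guidance receptor, fell by 0.44. The median over the 7 was 1.19 against 0.01 over all genes. Efnb2, Dll4 and Notch1 are also among the 9 arterial marker genes. All 9 of these were called higher in pre-HE, with a median of 1.85. In EHT all 7 tested fell relative to pre-HE, where 30% of all genes were called lower. Their median was -3.27 against 0.04 over all genes, and all 9 arterial genes were also called lower. Dll4 had mean WT levels of 136 CPM in pre-HE, 46.5 in aEC, 15.4 in vEC_1, 6.86 in vEC_2, 1.61 in vEC_3 and 2.52 in vEC_4.

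Between aEC and the venous clusters, 6 of 8 tested targets were higher in aEC than in vEC_1, 7 of 8 than in vEC_2 and vEC_3, and 5 of 8 than in vEC_4, where 24.8%, 31.9%, 33.4% and 26.6% of all genes were called higher. The medians over the targets were 0.32, 0.60, 0.55 and 0.39 on the log2 scale, and those over all genes 0.00028, 0.010, 0.00063 and -0.017. Prox1 was lower in aEC than in vEC_2, vEC_3 and vEC_4, and Cdh5 was lower than in vEC_4, at a log2 difference of -0.21. Prox1 was at 2.02 CPM in aEC, 62.8 ± 19.4 in vEC_3 and 102 ± 38.0 in vEC_4 (SD, n = 5), with a log2 difference of -4.70 ± 0.20 for aEC against vEC_3 and of -5.32 ± 0.19 against vEC_4. Sox18, which acts on Prox1, was at 216 CPM in vEC_1, 201 in vEC_2, 217 in vEC_3 and 250 in vEC_4. Among venous clusters vEC_4 thus had the highest mean of both genes, with Sox18 ranges that overlapped. In aEC the 2 genes went opposite ways, with Sox18 higher, at 294 CPM, and Prox1 at 2.02 CPM.

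Of 6 transcription factors and cofactors known to act with SoxF proteins, 2 rose and 2 fell in pre-HE relative to aEC, where 21.1% of all genes were called in each direction. Gata2, a factor of hemogenic endothelium, rose by 2.34 on the log2 scale and Ctnnb1, which encodes beta-catenin, by 0.44. Ets1, an ETS factor of endothelium, fell by 1.44 and Mef2c, an angiogenic factor, by 0.94. In EHT relative to pre-HE, Mef2c rose by 1.48 and Rbpj, the DNA-binding partner of Notch, by 0.51, and the other 4 fell, where 31.6% of all genes were called higher and 30% lower.

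The remaining Sox family was represented by 15 genes, of which 5 could be tested in pre-HE against aEC. Sox6 rose by 5.34 ± 0.34 on the log2 scale, from 1.20 CPM in aEC to 51.6 ± 29.8 CPM in pre-HE (SD, n = 5), Sox13 by 1.41, Sox4 by 0.84 and Sox12 by 0.62, and Sox11 fell by 0.45. So 4 of 5 were called higher, where 21.1% of all genes were. In EHT 4 of the 5 tested fell relative to pre-HE, where 30% of all genes were called lower. Sox6, a partner of Sox9 in cartilage, was thus high in the cluster where Sox9 had 1 UMI. A list of cartilage genes and partners of Sox9 held 14 symbols, and 2 of them, Sox6 and Hapln1, passed the filter on low counts in that comparison. Hapln1, which encodes a link protein of matrix, had a log2 difference of -1.87 in pre-HE and was called lower.

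At 5000 UMIs per cell, finding more than 1 SoxF gene in a cell was common in pre-HE and rare in EHT. Each cell was thinned to 5000 UMIs, so that depth did not set the shares, and cells below that were left out. All 3 SoxF genes were found in 32.4% ± 10.3 of pre-HE cells, 13.5% ± 6.38 of aEC cells, 4.93% of vEC_1, 2.28% of vEC_2, 1.19% of vEC_3, 2.88% of vEC_4 and 1.56% of EHT cells (SD, n = 5 WT libraries). None of the 3 was found in 2.22% of pre-HE, 9.25% of aEC, 19.1% to 29.7% of the venous clusters and 68.0% of EHT cells. Taken singly, Sox7, Sox17 and Sox18 were found in 43.4%, 79.6% and 83.9% of pre-HE cells, 27.7%, 61.5% and 70.4% of aEC cells and 4.84%, 7.76% and 27.9% of EHT cells. In myeloid cells, which should lack them, the shares were 0.609%, 0.778% and 2.02%. Without thinning the shares in aEC were 64.8%, 88.3% and 92.8%, and those in myeloid cells 3.95%, 5.40% and 9.67%. Those in pre-HE were then 61.0%, 94.9% and 94.4%, so that Sox7 was no longer found more often than in aEC. Those in EHT were 17.1%, 16.8% and 70.1%. EHT cells held more UMIs than pre-HE cells, with medians of 28944 and 12250 in WT 1. Shares at 5000 UMIs thus compare the part of a cell's RNA, and most EHT cells held Sox18 RNA at full depth.

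**Figure D3:**
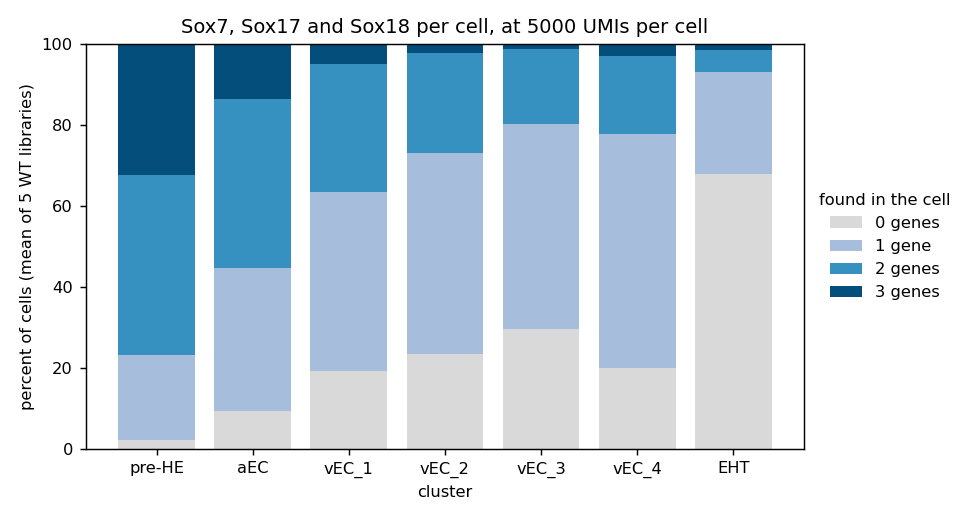
Percent of cells (vertical axis, mean of 5 WT libraries, cells thinned to 5000 UMIs) in which none, 1, 2 or all 3 SoxF genes were found, for 7 clusters (horizontal axis). The share with all 3 is 32.4% in pre-HE and 13.5% in aEC, and the share with none is 68.0% in EHT.

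Whether members were found in the same cells more often than their separate shares give was tested within each cluster. In aEC, Sox17 and Sox18 were found together in 38.5% of cells, and the product of their shares was 38.6%. In pre-HE they were together in 62.1%, against 61.0% from the product. Over the 18 SoxF tests in the 6 endothelial clusters, the difference between the observed share and the product ran from -0.604 to 2.17 percentage points. The largest of these was Sox7 with Sox18 in pre-HE. For Sox9 with a SoxF gene, the 18 differences ran from -0.249 to 0.225 points, and in aEC Sox9 and Sox17 shared 6.52% of cells against 6.29%. In an exact two-sided sign-flip permutation test over the 8 libraries, 0 of the 36 tests had p under 0.05, with a smallest p of 0.0781 where the design allows 0.00781. The smallest adjusted p was 0.920 (Benjamini-Hochberg over the 36). At 5000 UMIs, co-detection beyond the product of the shares was not detectable.

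Sox9 RNA in aEC came from a part of the cells. At full depth, 30 of the 150 aEC cells in WT 1 held at least 1 Sox9 UMI, as did 11 of 153 in WT 2, 13 of 51 in WT 3, 134 of 319 in WT 4 and 24 of 215 in WT 5. Cells with 5 or more Sox9 UMIs numbered 10, 5, 3, 45 and 3 in the same order, and the highest cell held 23, 14, 22, 20 and 6 UMIs. The 3 highest cells held 35.8%, 56.6%, 66.7%, 8.95% and 34.0% of the Sox9 UMIs of aEC, so that WT 4 differed from the other libraries in how widely Sox9 was spread. With cells thinned to 5000 UMIs, Sox9 was found in 12.2% ± 9.52 of aEC cells (SD, n = 5; 8.06% ± 2.36 without WT 4, which had 28.8%), 0.230% of pre-HE cells and 0.493% of myeloid cells. The SoxF genes, by contrast, were found in most aEC cells at full depth.

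The aEC cells with a Sox9 UMI at 5000 UMIs were compared with those without. WT 1, WT 4 and WT 5 had at least 10 such cells, with 15, 92 and 15, and entered the test with the library as a block. Of 5975 genes, 156 (2.61%) were called, 93 higher (1.56%) and 63 lower (1.05%). The count was 38 without WT 1 and 101 without WT 5, and DESeq2 called 39. SoxF levels did not pass the test. The log2 differences were -0.05 ± 0.261 for Sox7 (interval -0.58 to 0.47), 0.11 ± 0.168 for Sox17 (-0.23 to 0.45) and -0.31 ± 0.176 for Sox18 (-0.67 to 0.04; adjusted p = 0.50 in edgeR's quasi-likelihood test). Sox17 was at 293, 252 and 173 CPM in cells with Sox9 in WT 1, WT 4 and WT 5, and at 233, 246 and 174 CPM in cells without. Without WT 4 the difference of Sox7 was 0.38 and that of Sox18 0.03. Of the 7 SoxF targets tested 0 were called in edgeR, and 3 had an unadjusted p under 0.05.

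The 5 genes with the largest rise in Sox9-positive cells were Adm, Cdc42ep3, Apln, Slc41a1 and Kcne3. Adm, which encodes the vasoactive peptide adrenomedullin, was at 80.0, 291 and 360 CPM in cells with Sox9 in WT 1, WT 4 and WT 5, against 17.8, 64.3 and 64.3 CPM in cells without. The groups of cells did not overlap, and the difference was 2.28 ± 0.195 on the log2 scale (SE; adjusted p = 5.32e-10, edgeR's quasi-likelihood test). Apln, the gene of apelin, a ligand of sprouting endothelium, was at 173, 71.7 and 280 CPM against 44.4, 30.8 and 42.2 CPM. Cdc42ep3, an effector of the small GTPase Cdc42, differed by 1.94 ± 0.315, Slc41a1, a magnesium transporter gene, by 1.84 ± 0.370 and Kcne3, a potassium channel subunit gene, by 1.64 ± 0.188. Of 8 arterial genes tested 1 was called, Nrp1, a co-receptor for VEGF, by 0.83 ± 0.153. Flt4, the VEGF-C receptor gene of the lymphatic list, was called higher by 1.12.

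The 5 with the largest fall were Ccne2, Prim1, Rfc5, Fen1 and Nr2f2. Ccne2 encodes a cyclin of the entry into S phase, and Prim1, Rfc5 and Fen1 encode a primase subunit, a clamp loader subunit and a flap endonuclease of DNA replication. Ccne2 was at 13.3, 2.17 and 13.3 CPM in cells with Sox9 and at 38.5, 37.0 and 51.3 CPM in cells without, a log2 difference of -2.88 ± 0.643 (adjusted p = 0.0102, edgeR's quasi-likelihood test). In Sox9-positive cells each of these values equals 1 UMI, which is worth 13.3 CPM in WT 1 and WT 5 and 2.17 CPM in WT 4. With Sox9, Prim1 was at 0, 6.52 and 26.7 CPM, Rfc5 at 0, 13.0 and 0, and Fen1 at 13.3, 6.52 and 26.7. Nr2f2, the venous transcription factor gene known as COUP-TFII, was at 0, 13.0 and 0 CPM with Sox9 and at 48.9, 29.96 and 56.3 CPM without. Of 156 genes called, 148 went the same way in all 3 libraries.

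Cells with Sox9 in the Meis1-flox/VE-Cre libraries were not used to name these genes. KO 2 and KO 3 (replicates 2 and 3 of this genotype) had 19 and 18 such cells. Adm was at 400 and 411 CPM in them against 51.3 and 67.2 CPM in the cells without Sox9, a log2 difference of 2.77. Apln, Slc41a1, Kcne3 and Cdc42ep3 were also called higher there, by 2.13, 2.64, 1.58 and 1.58, and Nrp1 by 1.02. The 5 genes that fell in WT were not called, at -1.95 for Ccne2, -2.12 for Nr2f2, -0.80 for Prim1, -0.76 for Rfc5 and -0.08 for Fen1. Of the 149 WT calls that could be tested in both genotypes, 94.6% had the same direction and 38.3% were called the same way. Over the 4898 genes tested in both, those shares were 62.2% and 2.72%.

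Markers of other cell types that express Sox9 were read in the same WT cells. In Sox9-positive aEC cells 0 of 5 nephric and epithelial markers and 0 of 3 neural crest markers had a UMI. Sox9-negative cells were also near the floor, at 0 to 2.01 and 0 to 1.005 CPM. As 1 UMI is worth 13.3 CPM in the Sox9-positive cells of WT 1 and WT 5 and 2.17 in WT 4, these zeros cannot tell the groups apart. Of 7 mesenchyme markers 2 had a UMI, with a sum of 0 to 40.0 CPM against 1.48 to 4.02 CPM in Sox9-negative cells, and Pdgfra, Pdgfrb and Col1a1 were at 0. Endocardial genes, Nfatc1 and Npr3, summed to 30.4 to 53.3 CPM with Sox9 and 22.1 to 33.5 CPM without, so the ranges overlapped. The 4 lymphatic genes summed to 66.7 to 133 CPM with Sox9 and 41.2 to 46.7 CPM without, with no overlap, and Lyve1 and Pdpn were at 0 in cells with Sox9. Erythroid genes, which other cells leave in droplets as free RNA, summed to 13.3 to 152 CPM with Sox9 and 74.1 to 183 CPM without. The cartilage list gave 1 testable gene, Hapln1, at a log2 difference of -0.20, which was not called.

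**Figure D4:**
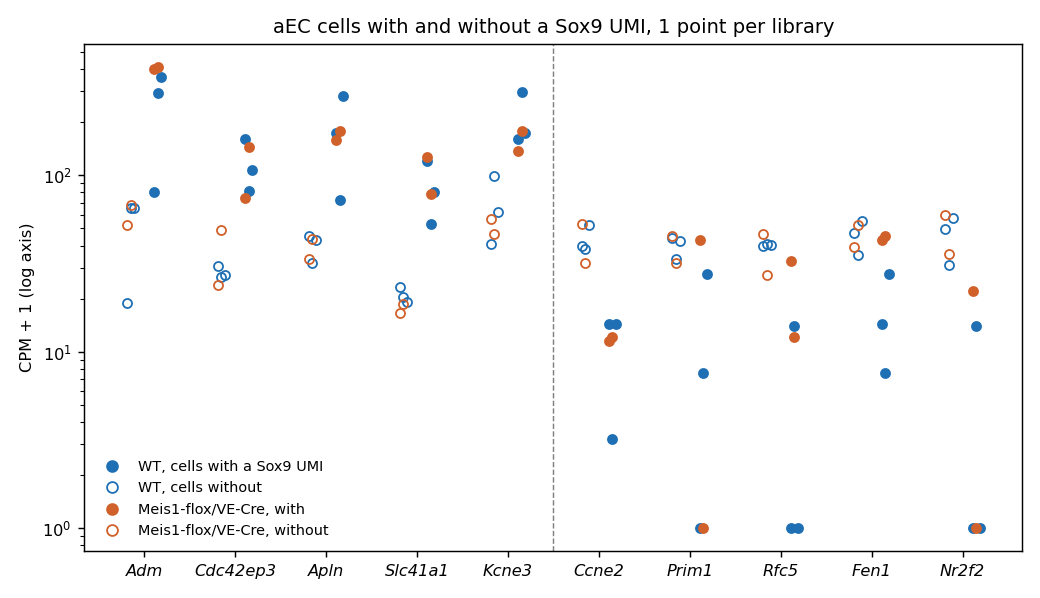
Level in CPM plus 1 (vertical axis, log scale) of the genes named from the Sox9 comparison in aEC (horizontal axis). There is 1 point per library and group of cells, with or without a Sox9 UMI. Adm in WT lies at 80.0 to 360 CPM in cells with a Sox9 UMI and at 17.8 to 64.3 CPM in cells without.

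Finally, each member was compared between genotypes. Across the 7 clusters tested, 22 member tests were made with edgeR's quasi-likelihood test, and 0 were called. The background was 0% of 9540 genes in aEC, 0.489% of 3682 in pre-HE, 0.127% of 8670 in EHT, 0.0187% of 10669 in vEC_2, and 0% in vEC_1, vEC_3 and vEC_4. At an unadjusted p under 0.05 there were 895 to 1485 genes in each of the 4 clusters at 0%. With DESeq2, adjusted calls came to 11 genes in aEC, 86 in vEC_1, 87 in vEC_3 and 23 in vEC_4. Of the 22, 3 had an unadjusted p under 0.05, and DESeq2 called 0. Members were lower in Meis1-flox/VE-Cre libraries in 21 of the 22. In aEC and vEC_1, sums of blood and erythroid markers had higher means there. Other lists did not: in aEC the 7 mesenchyme genes were at 2.59 CPM against 3.28 in WT, and 5 nephric genes at 0.625 against 0.880. In aEC, 3 blood markers summed to 0.914 to 6.29 CPM in WT and 3.50 to 13.3 CPM in Meis1-flox/VE-Cre, and 7 erythroid genes to 28.3 to 160.5 and 76.4 to 211 CPM. In vEC_1 the blood markers did not overlap, at 0.567 to 4.76 against 4.90 to 13.5 CPM, while the erythroid genes were at 32.3 to 168.5 and 108.5 to 220 CPM. The part of blood and erythroid RNA in the lower member values was not tested. Sox17 in aEC was at 145 to 175 CPM in the 3 Meis1-flox/VE-Cre libraries, with a mean of 165 ± 17.5, against 217 ± 31.6 in WT. The difference was -0.37 ± 0.126 on the log2 scale (interval -0.64 to -0.10; adjusted p = 0.361). WT 5, the WT library nearest to them in depth, was at 173 CPM, within their range. With the median UMIs per cell in the model the difference was -0.09, and with WT 5 as the only WT library it was -0.08. Without WT 5 it was -0.44 (adjusted p = 0.0609) and was called.

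Sox18 in aEC was at 222 ± 58.0 CPM in Meis1-flox/VE-Cre, a difference of -0.37 ± 0.194 (interval -0.78 to 0.04), and again WT 5 was the lowest WT library, at 184 CPM. Sox7 differed by -0.17 (-0.54 to 0.20) and Sox9 by -0.66 (-1.64 to 0.32). In pre-HE the log2 differences were -0.14 for Sox7 (-0.68 to 0.39), -0.16 for Sox17 (-0.58 to 0.27) and -0.31 for Sox18 (-0.89 to 0.27). These intervals take in changes of either sign, and so do those of EHT, where Sox17 was the only positive difference, at 0.24 (-0.51 to 0.99). In vEC_4 Sox17 differed by -0.66 ± 0.221 (adjusted p = 0.384). With WT 5 as the only WT library, 10 of 23 member differences were negative, and with the median UMIs as a covariate 8 of 22 were. The part of depth in the lower values was not separated from that of genotype.

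**Figure D5:**
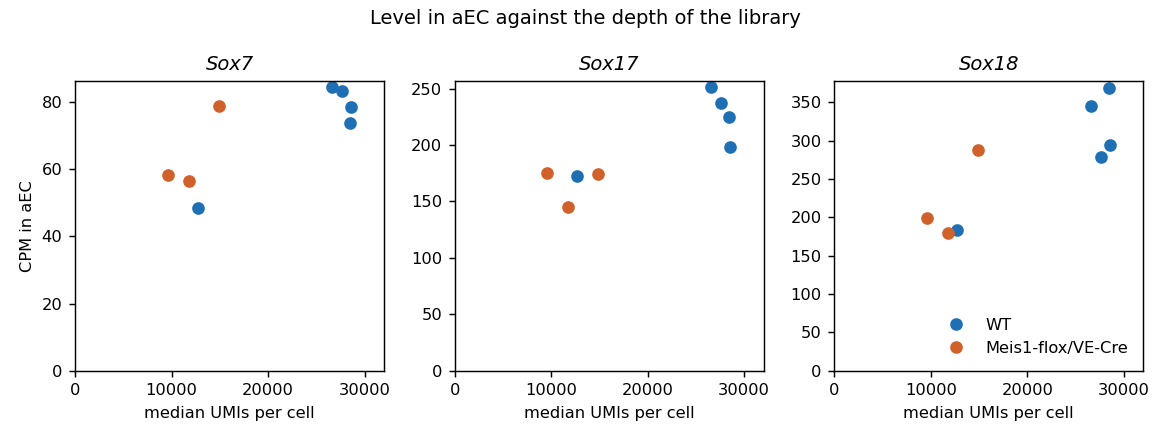
Level of Sox7, Sox17 and Sox18 in aEC in CPM (vertical axes, from 0) against the median UMIs per cell of the library (horizontal axes), with 1 point per library and color for genotype. WT 5, at 12720 UMIs per cell, lies among the Meis1-flox/VE-Cre libraries, and WT 1 to WT 4 lie at 26572 UMIs or more.

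Shares of cells were then compared at equal depth. At 5000 UMIs Sox17 was found in 61.5% of WT and 48.9% of Meis1-flox/VE-Cre aEC cells, a difference of -12.7 points (exact two-sided permutation test over 5 against 3 libraries, p = 0.0357). WT 5 was at 53.3%, the lowest WT library, and the Meis1-flox/VE-Cre libraries were at 47.2%, 51.0% and 48.4%, so the genotypes did not overlap. In vEC_2 the shares of Sox7 and Sox17 differed by -2.84 and -3.28 points, with the same p. There too WT 5, at 11.35% for Sox7 and 32.7% for Sox17, was above the Meis1-flox/VE-Cre libraries, which reached 10.9% and 30.8%. Of 24 such tests, 22 differences were negative, 3 had p under 0.05 and 0 passed adjustment over the 24 (smallest adjusted p = 0.286). Over the 7 clusters, 0 of 49 tests of SoxF targets and 0 of 42 of their partners were called by edgeR, with 2 and 6 at an unadjusted p under 0.05.

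Antibody tags gave a readout of protein that took no part in drawing the clusters. They were available in 7 libraries, since WT 4 held no tag counts. EHT cells of each library were split at the median of the CD45 tag, a protein of blood cells. Median CD45 tag counts of the upper and lower parts were 61 and 54 in WT 1, 96 and 58 in WT 2, and 63 and 34 in WT 3. In WT 5 they were 6 and 2. In Meis1-flox/VE-Cre replicates 1 to 3 they were 9 and 4, 5 and 2, and 3.5 and 1. Sox18 was at 77.1 CPM in the cells with more CD45 tag and at 45.9 CPM in the others, higher in 7 of 7 libraries, a log2 difference of 0.76 ± 0.64 (SD; exact two-sided sign-flip permutation test, p = 0.0156, the smallest that 7 libraries can give). Sox7 was higher by 0.92 ± 0.927 in 6 of 7 libraries and Sox17 by 1.49 ± 1.73 in 5 of 7 (exact permutation p = 0.0469 and 0.0938), from 66 and 151 UMIs in all. Cdh5 RNA was also higher by 0.72, in 7 of 7 libraries. The RNA of CD45 itself, Ptprc, differed by 0.30 ± 0.71, in 5 of 7 libraries. Over all 10 tests of members against a tag, the smallest adjusted p was 0.156. With tag counts taken as they stand, and not relative to the other tags of the cell, Sox18 differed by 0.13, Sox7 by -0.46 and Sox17 by -0.94. CD117 in EHT and CD44 in aEC gave differences with p from 0.219 to 0.750 in the same exact permutation test, where 4 libraries with a CD44 tag cannot go below 0.125.

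Genes whose WT levels over the 10 cell types were most like those of each member were found by Pearson's r on log2(CPM + 1), among 7850 genes with at least 20 CPM in a type. The 10 points share libraries and depth, so r is a description. Sox7 was followed by Dach1, a transcription factor gene (r = 0.998), Gpx7, Mmrn2, an endothelial matrix gene, Nrep and Col4a2, a basement membrane collagen. Sox17 was followed by Caml (0.994), Efna1, an ephrin ligand (0.991), Mcam, an endothelial adhesion molecule, Arhgef28 and Rhbdf1. Efna1 was at 381 CPM in pre-HE, 107 in aEC and 11.9 in EHT. Sox18 was followed by Ecscr, an endothelial surface protein gene (0.997), Arhgap28, Enah, Ramp2, a co-receptor for adrenomedullin, and Nr2f6. Sox9 had less close matches, led by Ccdc141 (0.948), at 20.6 CPM in aEC and 0.369 in pre-HE, and then Tmem159, Apod, Ddt and Car4. Among the members, r was 0.978 for Sox7 with Sox17, 0.980 for Sox7 with Sox18 and 0.942 for Sox17 with Sox18, and 0.412 to 0.460 for Sox9 with a SoxF gene.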

How the data were processed

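Single-cell RNA of sorted CD31+ cells from E10.5 AGM was measured with 3′ chemistry. The authors aligned and counted reads with Cell Ranger 3.0.2 on mm10, kept cells with more than 2000 genes and under 10% mitochondrial counts, integrated libraries, clustered and named the cells. The deposited table holds whole UMI counts, not normalized, and its 15168 cells have at least 2001 genes and at most 9.98% mitochondrial counts. Doublets were gated out at the sort, per the study's methods, and no removal from the counts was stated in the sources used here. Scrublet (scanpy 1.11.5, 30 components) marked 83 cells (0.547%), which were kept and left out in an alternative.

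Counts were summed per library and cell type, with at least 10 cells a sum. Sums were tested in R 4.3.3 with edgeR 4.0.16 (TMM, filterByExpr, quasi-likelihood F test, library block within WT, none between genotypes) and DESeq2 1.42.0 as an alternative, with Benjamini-Hochberg adjustment over all genes. SE is the log2 fold change divided by the root of F, and 95% intervals use the t quantile at the degrees of freedom of that test. Cells were thinned to 5000 UMIs (3000 and 8000 as alternatives). Tag counts were log-scaled relative to the mean over tags of a cell. Single values were tested by exact permutation over libraries. Members and gene lists were chosen with earlier results of these data known. From the Sox9 comparison the 5 largest rises and 5 largest falls were named, among called genes that had 1 direction in every library and averaged 5 or more in log2 CPM, and for each member the 5 genes most correlated across types. Scripts were tested on simulated counts. Counting intervals and shares cover counting error only, and UMIs of 1 cell or embryo pool are not independent samples.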

Additional observations from a re-analysis of the deposited data

Results flagged for a closer look

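WT libraries were compared in 40 groups, 1 for each member and cell type, of 5 libraries each and of 4 in megakaryocytes. In 5 groups a library lay far from the others. The rule is set to flag about 1 in 20 by chance. That rate need not hold for groups with few UMIs, or for flags of 1 gene in 1 library, so the count was not read against it. Sox17 in pre-HE was at 366.9 CPM in WT 5, from 57 UMIs in 16 cells, and at 498.9 to 522.9 CPM in the others. WT 5 was also the library with the most venous marker RNA in pre-HE, and the part of this in the low value was not tested. Sox17 in EMP was at 9.047 CPM in WT 4, from 51 UMIs, and at 0.4843 to 2.966 CPM in the others. Sox9 in WT 4 was apart in 3 cell types. It was at 12.89 CPM in vEC_1, from 193 UMIs, against 0.3967 to 1.416 CPM elsewhere, at 7.794 CPM in vEC_2, from 135 UMIs, against 0.1331 to 1.107 CPM, and at 0.7907 CPM in pre-HE, which was 1 UMI against 0 in the other 4.

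The log2 ratio of a SoxF gene between cell types was compared between genotypes in 18 cases, 15 with aEC and 3 of EHT over pre-HE. In 3 the exact two-sided permutation test over 5 against 3 libraries gave p under 0.05, and 0 of the 18 passed adjustment, with adjusted p of 0.161 to 0.214 for these 3. Sox17 in aEC over vEC_1 was 0.85 in WT and 0.58 in Meis1-flox/VE-Cre, a difference of -0.2734 (exact permutation p = 0.0357). Sox18 in aEC over vEC_1 was 0.45 in WT, with libraries from 0.4254 to 0.4512, and 0.2428 to 0.3519 in Meis1-flox/VE-Cre, a difference of -0.1486. Sox18 in aEC over vEC_3 was at 0.38 to 0.4872 in WT and 0.2846 to 0.3698 in Meis1-flox/VE-Cre, a difference of -0.1296. Both Sox18 values had an exact permutation p of 0.0179, the smallest this design can give. WT 5 had Sox18 ratios of 0.4511 and 0.4862, within the WT ranges. The part of depth in these ratios was not tested.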

How the results depend on the processing

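Differences between cell types within WT kept their direction for every member checked, under all alternatives run. Sox9 in pre-HE against aEC, with 1 UMI in pre-HE, was left out of this check. Under Bonferroni adjustment 2 members were called for pre-HE against aEC. Between genotypes the counts of called members rose from 0 under a fit with replicate number as a block, to 2 in aEC and 1 each in vEC_1, vEC_2, vEC_3 and vEC_4, and to 1 in vEC_4 without a filter on low counts. The block also turned Sox7 to 0.045 in pre-HE and 0.021 in EHT. Replicate 1 of both genotypes did not deviate together (r from -0.062 to 0.007). Replicates 2 and 3 did so weakly, at 0.089 to 0.203, where WT 2 and WT 3 reached at most 0.044 with a Meis1-flox/VE-Cre library of another number. The study states no block, so the main fit used none. Whether the numbers pair the libraries was not settled. Over all genes, 0 to 18 were called per cluster, against 135 to 1474 with the replicate block and 79 to 1002 without WT 5. Leaving out a library gave 0 to 1 called members in aEC, the call being Sox17 without WT 5. It also gave Sox17 in EHT from -0.142 to 0.502, Sox7 in pre-HE from -0.26 to 0.006 and Sox7 in vEC_3 from -0.237 to 0.004, and Sox7 in vEC_3 was 0.048 with cells thinned to 5000 UMIs.

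Setting depth beside genotype turned the sign of many member differences. With median UMIs as a covariate, the values were 0.479 for Sox7, 0.366 for Sox18 and 0.498 for Sox9 in aEC, 0.405 for Sox17 and 0.736 for Sox18 in pre-HE, and 0.064 for Sox18 in EHT. In the venous clusters they were 0.049, 0.11 and 0.512 for Sox7, Sox17 and Sox18 in vEC_1, 0.29 for Sox18 in vEC_2, 0.333 and 0.571 for Sox7 and Sox18 in vEC_3 and 0.45 for Sox18 in vEC_4. With WT 5 as the only WT library they were 0.39 for Sox7, 0.26 for Sox18 and 0.29 for Sox9 in aEC, 0.222 for Sox17 and 0.512 for Sox18 in pre-HE and -0.003 for Sox17 in EHT. In the venous clusters they were 0.021, 0.08 and 0.408 for Sox7, Sox17 and Sox18 in vEC_1, 0.206 for Sox18 in vEC_2, 0.449 and 0.462 for Sox7 and Sox18 in vEC_3 and 0.252 for Sox18 in vEC_4. For shares of cells, 0 passed the adjusted threshold between genotypes at 3000 UMIs, at 8000 UMIs or with no thinning.

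The count of 156 genes for Sox9-positive aEC cells became 39 with DESeq2, 36 with Bonferroni adjustment, 31 with no replicate block (the library taken out of the model), 325 with sums of at least 5 cells, and 38 to 127 without 1 library. There, Sox7 became 0.088 with DESeq2 and 0.1 with no replicate block, and ranged from -0.237 to 0.384 without 1 library, where Sox18 ranged from -0.433 to 0.029. Co-detection of Sox17 and Sox18 in aEC was 1.235, 0.1481 and 0.5843 points above the product at 3000 UMIs, at 8000 UMIs and with no thinning, and -0.2149 to 0.1597 without 1 library. In pre-HE it was -0.4895 at 8000 UMIs and -0.7014 with no thinning. The number of members that passed for the CD45 tag, 1 of 3 when adjusted within that tag, was 0 with raw tag counts, with thinned cells and without called doublets, 2 when only the cells highest and lowest in the tag were compared, leaving out the middle ones, and 0 to 2 without 1 library, where 6 libraries allow only p of 0.0312 or more. Raw tag counts gave -0.4562 for Sox7 and -0.9439 for Sox17 by CD45, -0.07011 for Sox18 and 0.6178 for Sox9 by CD44, and -1.411 for Sox17 and -0.4022 for Sox18 by CD117. With the middle cells left out, Sox18 by CD44 was -0.02532. Without 1 library, Sox9 by CD44 ranged from -0.3697 to 0.1719 and Sox17 by CD117 from -0.05706 to 0.795. The cause of these shifts was not tested. In pre-HE and EHT the cells per library, and for Sox9 outside aEC the few UMIs, limit what could be seen.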
